A study of Mus musculus with 12 samples.

Results

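The Cyp2c genes encode a family of cytochrome P450 enzymes of the endoplasmic reticulum, and 10 of them were followed here in mouse liver: Cyp2c23, Cyp2c29, Cyp2c37, Cyp2c38, Cyp2c40, Cyp2c50, Cyp2c54, Cyp2c55, Cyp2c67 and Cyp2c70. They were taken by gene symbol, through the Ensembl identifiers of the expression table, and are 10 of 35275 genes and 10 of the 16 Cyp2c genes in it. All 10 averaged 0.5 FPKM or more across the 12 livers, and so were among the 12466 genes tested. FPKM is a gene's fragment number corrected for transcript length and library depth, so levels may be set side by side between genes.

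P450 enzymes use haem and electrons from NADPH, passed on by P450 reductase, to insert an oxygen atom into their substrates. In mouse liver, Cyp2c enzymes oxidise drugs and steroids and turn arachidonic acid into epoxides and hydroxy acids, while Cyp2c70 makes the muricholic acids, the bile acids typical of mice. Many of these genes are active chiefly in hepatocytes around the central vein and several differ between the sexes under the control of growth hormone.

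Whole livers of male mice were sequenced in 4 groups of 3, with 1 library for each mouse. Pctp-/- mice, in which no cell of the body makes phosphatidylcholine transfer protein, and wild-type (WT) mice received chow or a diet deficient in methionine and choline (MCD), used to damage the liver. Because the knockout is not confined to hepatocytes, a difference between genotypes need not begin in them, and in whole liver fewer cells of a type and less RNA per cell cannot be told apart. The age of these mice and the time on the diet were not given in the sources used here.

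Uniquely mapped reads numbered 30486576 to 55179468 in the chow libraries and 33463498 to 46246856 in the MCD libraries. Between 77.6 and 79.4% of chow reads and between 85.7 and 87.5% of MCD reads mapped uniquely, the share mapped to several places was 4.07 to 4.84% and 6.50 to 7.40%, and the read error rate was 0.03% and 0.01%, so that the diet cannot be told apart from what differed in the sequencing of these sets. Pctp was 1.21 to 2.65 FPKM on chow and 3.61 to 7.90 FPKM on MCD in WT livers, and 0.156 to 0.566 FPKM in Pctp-/- livers. Hepatocyte markers were high in every liver, with albumin (Alb) between 26290 and 61588 FPKM.

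WT MCD replicate 1 stood apart from the other MCD-fed WT livers in several Cyp2c genes. Where leaving it out changed the call of a member, the result is given with and without it. All livers share the spread in the fit, so this liver also widens the standard errors of comparisons in which it takes no part. For the diet effect on Cyp2c29 in Pctp-/- mice, the standard error was 0.41 with it and 0.12 without it. In that liver 200 of the 12466 tested genes lay more than 1 on the log2 scale from the mean of the other livers of the group, against 55 and 81 for the others, while Pctp-/- chow replicate 1 had 328. The summed level of 6 stellate cell markers was 43.8 FPKM in it and 22.3 and 19.1 FPKM in the other WT MCD livers, and that of 5 cholangiocyte markers was 25.5, 13.7 and 15.9 FPKM. The 6 macrophage markers summed to 193, 156 and 258 FPKM, although Cd68 alone was 43.1 FPKM against 16.5 and 17.9 FPKM. No defining marker of these lists was at 0 in every liver, and the part of other cell types in the results was not tested.

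Sequence relationship matters for this family, because reads from near-identical genes can be credited to the wrong one. Except for Cyp2c23, which lies apart at chr19:44005022-44029208 (GRCm38, GENCODE M21, minus strand), the members sit in 1 cluster on chromosome 19, from Cyp2c55 at chr19:39007019-39042693 to Cyp2c70 at chr19:40153353-40187333. Each has 9 exons. The coding sequence of Cyp2c37 is 96.1% identical to that of Cyp2c50, Cyp2c54 is 95.2% identical to Cyp2c50, Cyp2c38 is 94.2% identical to Cyp2c39 and Cyp2c67 is 97.7% identical to Cyp2c69. Cyp2c67 is also 97.1% identical to Cyp2c68. Cyp2c69 was at most 0.112 FPKM in any liver, whereas Cyp2c68 averaged 41.1 to 106 FPKM in the 4 groups. Of all 50-base windows in the coding sequence, 75.3% in Cyp2c40, 54.7% in Cyp2c67, 32.4% in Cyp2c50, 32.2% in Cyp2c37, 26.9% in Cyp2c54, 13.7% in Cyp2c38 and 2.53% in Cyp2c29 also occur in another gene, while Cyp2c23, Cyp2c55 and Cyp2c70 share 0%. At the read length of 150 bases these shares are 33.7% in Cyp2c40, 15.6% in Cyp2c67, 4.09% in Cyp2c50, 3.71% in Cyp2c54 and 0.379% in Cyp2c37. The values of Cyp2c40 and Cyp2c67 are therefore the least certain, and those of Cyp2c37, Cyp2c50 and Cyp2c54 could have been divided among them in a way that depends on the counting, which was not given in the sources used here. Cyp2c29 also overlaps the pseudogene Cyp2c53-ps on the same strand.

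The likeness can be read in the 54 coding bases around the loop that holds the haem iron, a stretch shared by all P450 enzymes. It is shown for the 3 near-identical genes, for Cyp2c29, and for the 3 members with no shared window, with capitals at the bases that differ from Cyp2c50. Cyp2c37 and Cyp2c54 each differ from Cyp2c50 at 3 bases of this stretch, Cyp2c29 at 6, Cyp2c55 at 12, Cyp2c70 at 16 and Cyp2c23 at 21 (sequences from GENCODE M21 transcripts).
Cyp2c50: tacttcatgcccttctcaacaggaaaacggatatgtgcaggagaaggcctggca
Cyp2c37: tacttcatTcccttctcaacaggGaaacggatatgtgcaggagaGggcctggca
Cyp2c54: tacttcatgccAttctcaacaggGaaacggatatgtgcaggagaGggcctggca
Cyp2c29: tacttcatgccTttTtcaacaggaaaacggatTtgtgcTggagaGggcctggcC
Cyp2c55: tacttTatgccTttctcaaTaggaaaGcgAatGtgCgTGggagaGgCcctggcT
Cyp2c70: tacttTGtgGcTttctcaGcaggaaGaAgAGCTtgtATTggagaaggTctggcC
Cyp2c23: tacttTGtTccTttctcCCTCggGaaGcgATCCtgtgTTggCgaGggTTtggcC

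Summed over the 10 genes, the level was 2279, 2366 and 2286 FPKM in the WT chow livers and 2465, 2143 and 2285 FPKM in the Pctp-/- chow livers. It was 756, 2138 and 2439 FPKM in the WT MCD livers and 1096, 1027 and 1262 FPKM in the Pctp-/- MCD livers. All 3 Pctp-/- livers on MCD thus lay below every chow liver, and on MCD WT replicate 3 lay within the range of the chow livers, replicate 2 just under their lowest value and replicate 1 below all others. The ratio of mean sums between Pctp-/- and WT was 0.995 on chow and 0.635 on MCD, or 0.493 on MCD without WT MCD replicate 1. Between MCD and chow it was 0.491 in Pctp-/- mice and 0.769 in WT mice, or 0.991 in WT mice without that liver. No test was made of the sum, which leaves out the 6 other Cyp2c genes measured. Those summed to 49.7 to 105 FPKM in chow livers and 290 to 383 FPKM in MCD livers. The ratios therefore hold for these 10 genes only.

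**Figure D1:**
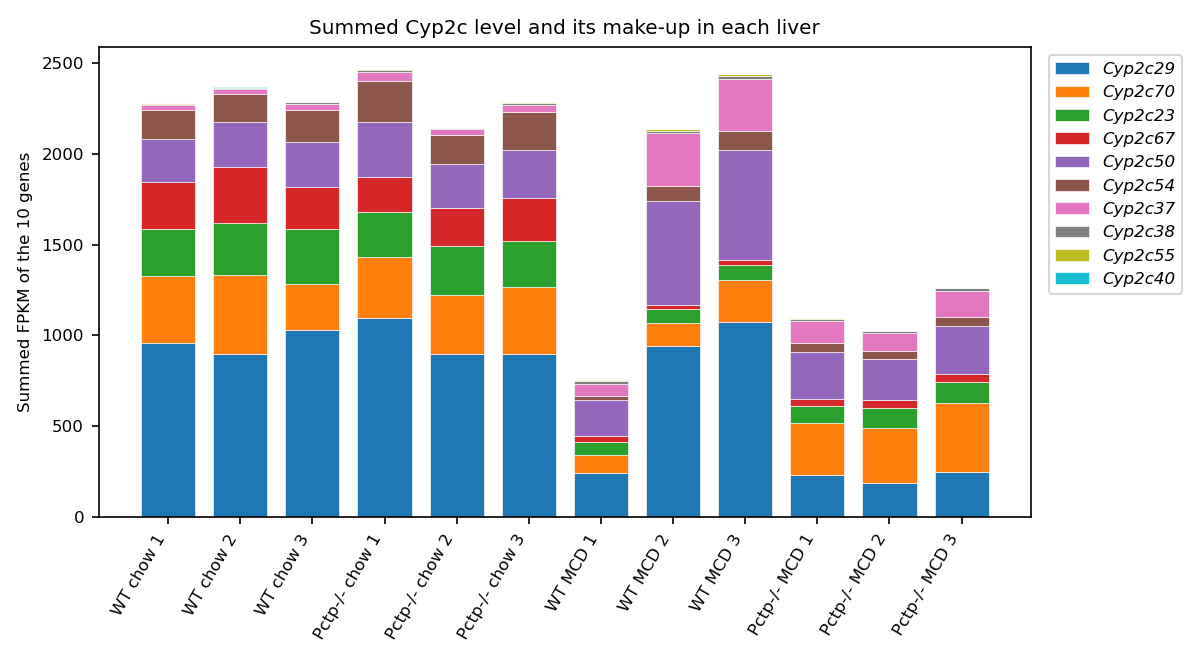
Summed FPKM of the 10 Cyp2c genes (vertical axis) in each of 12 livers (horizontal axis), with each gene as a coloured segment. Cyp2c29 makes up 37.8 to 45.0% of the sum on chow in WT livers and 18.2 to 21.0% in Pctp-/- livers on MCD, and WT MCD replicate 1 has the lowest sum, 756 FPKM.

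The make-up of the sum differed between diets as well as its size. Cyp2c29 held a mean of 41.6% of it in WT and 41.8% in Pctp-/- livers on chow, 39.9% in WT livers on MCD and 19.7% in Pctp-/- livers on MCD. Cyp2c70 was the most abundant member in the Pctp-/- MCD group, with 28.6% of the sum against 15.3% in WT livers on chow. Cyp2c50 rose from 10.6% to 26.1% of the sum in WT livers and from 11.8% to 22.3% in Pctp-/- livers when chow and MCD means are set side by side, as a description with no test.

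No member passed the test between genotypes on chow. At a Benjamini-Hochberg adjusted p under 0.05, from limma fitted to log2(FPKM + 1), 0 of 10 members differed between Pctp-/- and WT livers, where 17 of 12466 genes (0.136%) did. At an unadjusted p under 0.05 there was 1, Cyp2c67, at 260.0, 306 and 232 FPKM in WT and 193, 209 and 236 FPKM in Pctp-/- livers (log2 fold change -0.32, standard error 0.12, adjusted p = 0.572). The ranges of the groups did not meet for 1 member, Cyp2c37, which was 31.6, 25.9 and 31.3 FPKM in WT and 48.8, 32.4 and 37.4 FPKM in Pctp-/- livers, beside 10.6% of all genes tested. With 3 mice against 3, an exact permutation test of a single gene cannot give a two-sided p under 0.1, so the fit across all genes was used. In that fit Pctp itself did not pass on chow (log2 fold change -1.07, standard error 0.23, adjusted p = 0.150). It passed on MCD (-2.33, standard error 0.23, adjusted p = 6.24e-04). Not passing on chow therefore does not show that a gene is unchanged. The median log2 fold change of the members was 0.05, and that of all genes tested 0.01. The 95% intervals were narrowest for Cyp2c23 (-0.32 to 0.07) and widest for Cyp2c37 (-0.55 to 1.33). A change of 1 on the log2 scale lay inside the intervals of Cyp2c37 and Cyp2c54 (-0.65 to 1.17). All livers share the spread, so these widths depend on WT MCD replicate 1 too. Without it the chow intervals were 0.04 to 0.74 for Cyp2c37 and -0.03 to 0.54 for Cyp2c54. Neither gene passed then (adjusted p = 0.588 and 0.689). That liver was set apart for its low values of these genes, so the narrower intervals follow in part from that choice.

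**Figure D2:**
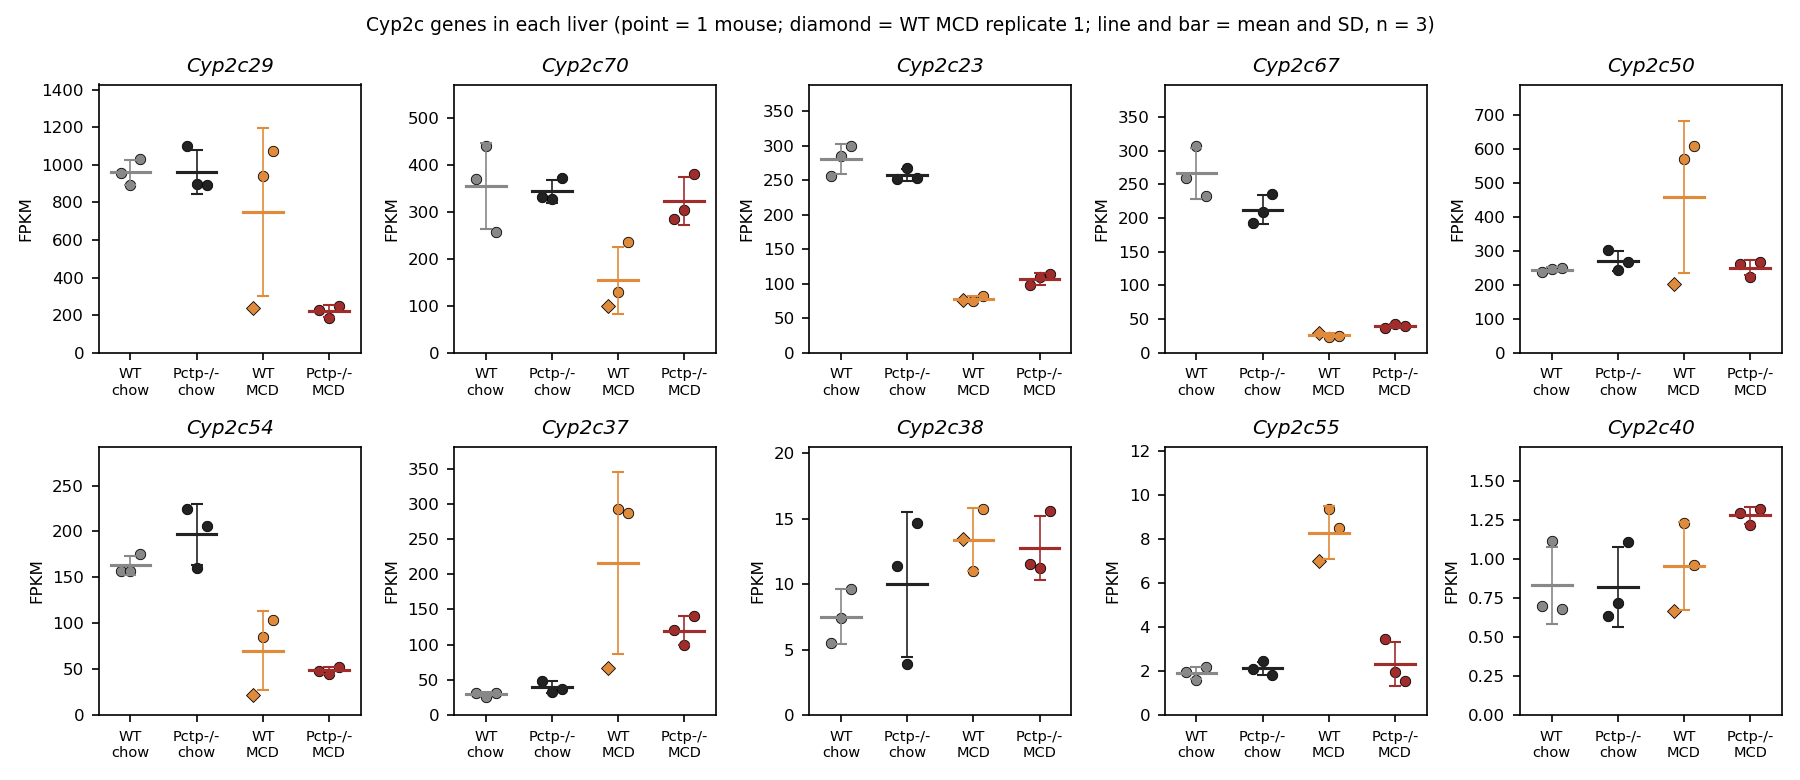
FPKM of each Cyp2c gene (vertical axes, each from 0 on its own linear scale) by genotype and diet (horizontal axes), with points for single mice, a diamond for WT MCD replicate 1, and the mean and SD of 3 mice. In Cyp2c29, Cyp2c37, Cyp2c50 and Cyp2c54 the diamond lies well below the other WT MCD livers, whereas in Cyp2c23 and Cyp2c67 the 3 livers lie close together.

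The MCD diet was followed by large changes of single members, in both directions. In WT mice 6 of 10 members passed the test, where 57.0% of all genes did, with 2 higher (34.5% of all genes) and 4 lower (22.5% of all genes). In Pctp-/- mice 5 of 10 passed, where 50.3% of all genes did, with 1 higher (26.0%) and 4 lower (24.4%). A share of members called near that of all genes is no result about the family as such, and the account below is of its single genes. The median log2 difference of the members was -0.26 in WT and -0.10 in Pctp-/- mice, against 0.11 and 0.04 over all genes. Scaling the libraries by the median of ratios moved the median of all genes in WT mice from 0.11 to 0.01, and the members passing the test in each genotype numbered the same, 6 and 5, with 2 and 1 of them higher.

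Cyp2c67 and Cyp2c23 fell most evenly. Cyp2c67, at chr19:39608842-39649051, was 266 ± 37.5 FPKM in WT livers on chow (SD, n = 3) and 29.1, 24.1 and 25.3 FPKM in WT livers on MCD. In Pctp-/- livers it was 213 ± 21.9 FPKM on chow (SD, n = 3) and 36.3, 42.9 and 39.9 FPKM on MCD. No MCD liver reached a chow liver. Its near-identical relative Cyp2c68 moved the other way, from a mean of 51.9 to 97.0 FPKM in WT and from 41.1 to 106 FPKM in Pctp-/- livers. How reads were divided between Cyp2c67 and Cyp2c68 was not tested. With MCD the log2 level of Cyp2c67 changed by -3.29 ± 0.12 (standard error) in WT (adjusted p = 4.47e-09) and by -2.39 ± 0.12 in Pctp-/- mice (adjusted p = 6.86e-08).

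Cyp2c23, which was long listed as Cyp2c44 and makes epoxides of arachidonic acid, was 257, 285 and 299 FPKM in WT and 252, 268 and 253 FPKM in Pctp-/- livers on chow. On MCD its levels were 75.9, 75.7 and 82.8 FPKM in WT and 97.6, 109.8 and 115 FPKM in Pctp-/- livers. Every MCD liver was below every chow liver, and the 3 WT MCD livers, replicate 1 included, agreed closely. The log2 change was -1.83 in WT (standard error 0.09, adjusted p = 4.40e-08) and -1.26 in Pctp-/- mice (standard error 0.09, adjusted p = 6.85e-07).

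Cyp2c54, at chr19:40037940-40073827, is an arachidonic acid epoxygenase close to Cyp2c50 in sequence. It was 157, 157 and 175 FPKM in WT and 225, 160.2 and 206 FPKM in Pctp-/- livers on chow. With MCD the levels were 21.3, 84.7 and 104 FPKM in WT and 48.3, 45.1 and 52.6 FPKM in Pctp-/- livers. All 6 MCD livers lay below the chow livers of their genotype. With MCD it changed by -1.49 on the log2 scale in WT mice (standard error 0.42, adjusted p = 0.0093), by -0.79 without WT MCD replicate 1 (standard error 0.14, adjusted p = 0.0010), and by -1.98 in Pctp-/- mice (standard error 0.42, adjusted p = 0.00194).

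Cyp2c37 rose while its near-identical neighbour Cyp2c54 fell. From the chow values above, 25.9 to 48.8 FPKM over both genotypes, it went to 66.4, 293 and 287 FPKM in WT and 121, 98.8 and 140.0 FPKM in Pctp-/- livers on MCD. Each MCD liver was above all chow livers. Its rise on the log2 scale was 2.55 (standard error 0.43, adjusted p = 3.48e-04) in WT mice, or 3.26 (standard error 0.18, adjusted p = 3.50e-07) without WT MCD replicate 1, and 1.58 (standard error 0.43, adjusted p = 0.00916) in Pctp-/- mice.

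Cyp2c50, the other close relative of Cyp2c37, did not pass the test in either genotype with all libraries. Its levels were 238, 247 and 250.3 FPKM in WT and 303, 244 and 268 FPKM in Pctp-/- livers on chow, and 202, 569 and 608 FPKM in WT and 262, 224 and 266 FPKM in Pctp-/- livers on MCD. WT MCD replicates 2 and 3 were above every other liver, and replicate 1 was below every other liver. In WT mice the change with MCD was 0.75 on the log2 scale (standard error 0.31, adjusted p = 0.0561), and without replicate 1 it was 1.26 (standard error 0.11, adjusted p = 7.64e-06). In Pctp-/- mice it was -0.11 (95% interval -0.79 to 0.56).

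Cyp2c29, the most abundant member on chow and an epoxygenase that also metabolises drugs, was 958, 895 and 1029 FPKM in WT and 1098, 896 and 895 FPKM in Pctp-/- livers on chow. After MCD its levels were 239.5, 941 and 1072 FPKM in WT and 230.0, 187 and 249 FPKM in Pctp-/- livers. The 3 Pctp-/- livers and WT replicate 1 lay in 1 narrow range, and WT replicates 2 and 3 were at the level of chow. In Pctp-/- mice the log2 change was -2.11 (standard error 0.41, adjusted p = 0.00117). For WT mice the change was -0.62 (standard error 0.41, adjusted p = 0.219), and it was 0.07 (standard error 0.14, adjusted p = 0.713) without replicate 1.

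Cyp2c70, which oxidises chenodeoxycholic acid on the way to muricholic acids, was 369.6, 439 and 257 FPKM in WT and 332, 327 and 371 FPKM in Pctp-/- livers on chow. On MCD it stood at 100.03, 129 and 235 FPKM in WT and 285, 304 and 381 FPKM in Pctp-/- livers. The WT MCD livers were below all others. The log2 change was -1.25 in WT mice (standard error 0.27, adjusted p = 0.00169), and the value without replicate 1 was -0.99 (standard error 0.26, adjusted p = 0.00757). In Pctp-/- mice the difference was -0.10 (95% interval -0.68 to 0.49).

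Cyp2c55, an enzyme better known from the colon that hydroxylates arachidonic acid, was low on chow, at 1.96, 1.61 and 2.16 FPKM in WT and 2.07, 2.45 and 1.84 FPKM in Pctp-/- livers. On MCD it was 6.97, 9.37 and 8.51 FPKM in WT and 3.47, 1.97 and 1.57 FPKM in Pctp-/- livers. The 3 WT MCD livers were above all 9 other livers. Its log2 level rose by 1.67 (standard error 0.18, adjusted p = 1.48e-05) in WT and differed by 0.06 (95% interval -0.34 to 0.46) in Pctp-/- mice.

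Cyp2c38 and Cyp2c40 did not pass the test in any comparison. Cyp2c38, an epoxygenase close to Cyp2c39, ranged from 3.91 to 14.7 FPKM on chow and from 10.98 to 15.8 FPKM on MCD, and its log2 fold change with MCD was 0.77 in WT (adjusted p = 0.0733) and 0.47 in Pctp-/- mice (adjusted p = 0.274). Cyp2c40, which hydroxylates arachidonic acid, ranged from 0.634 to 1.12 FPKM on chow and from 0.669 to 1.33 FPKM on MCD. At that level, with most of its short windows shared with other genes, a difference would not have been measured reliably.

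**Figure D3:**
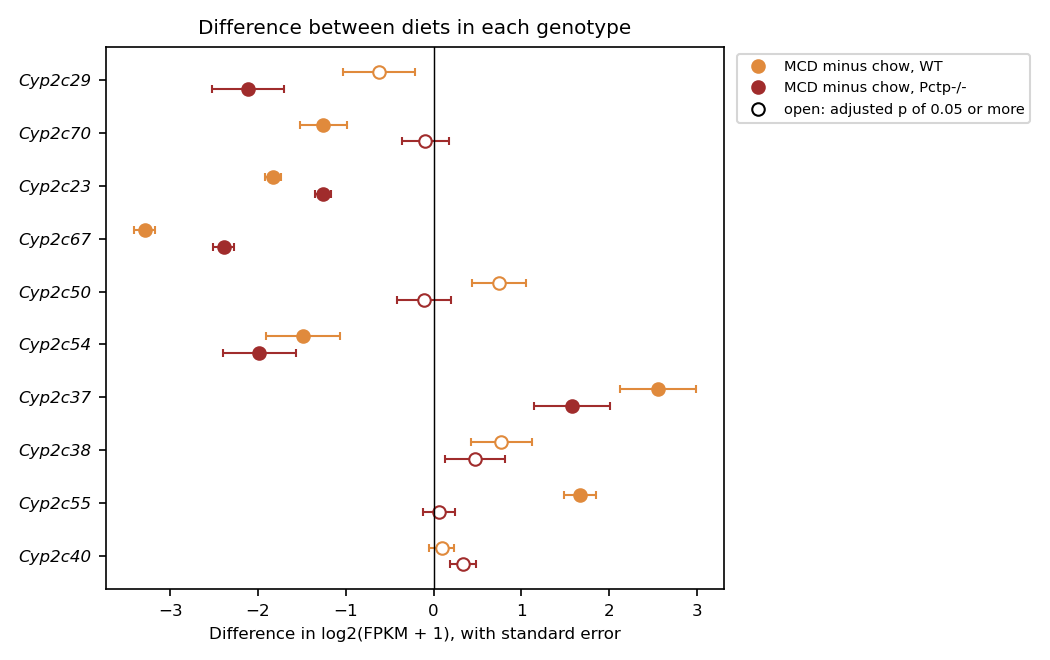
Difference between MCD and chow in log2(FPKM + 1), with its standard error from limma (horizontal axis), for each Cyp2c gene (vertical axis) in WT and Pctp-/- mice; filled points passed an adjusted p of 0.05. Cyp2c67, Cyp2c23 and Cyp2c54 lie below 0 in both genotypes, Cyp2c37 lies above 0 in both, and Cyp2c29, Cyp2c70 and Cyp2c55 passed in 1 genotype each.

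Whether the response to MCD differed between genotypes was tested as the difference of both effects. Of 10 members 1 passed, Cyp2c55, with 12 of 12466 genes (0.0963%) passing in all and 7 of those (0.0562%) lower, as Cyp2c55 was, and 5 (0.0401%) higher. The difference for Cyp2c55 was -1.61 (Pctp-/- minus WT, standard error 0.26, adjusted p = 0.0488), and it was -1.71 (standard error 0.27, adjusted p = 0.0442) without WT MCD replicate 1. Under other settings the size was -1.99 to -1.44 and the call was kept in 6 of 19 of them. The median difference of the members was -0.40 and that of all genes -0.10. For Cyp2c29 and Cyp2c70, which passed in 1 genotype each, the differences were -1.49 (adjusted p = 0.253) and 1.16 (adjusted p = 0.185), so that no difference between genotypes was shown for them with all libraries. Those of Cyp2c67 and Cyp2c23 were 0.90 (adjusted p = 0.0694) and 0.57 (adjusted p = 0.0977), opposite in sign to that of Cyp2c55 and short of the threshold. Without WT MCD replicate 1 they were 0.98 (adjusted p = 0.066) and 0.55 (adjusted p = 0.148).

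With all libraries the differences of Cyp2c37, Cyp2c50 and Cyp2c54 were -0.97 (adjusted p = 0.481), -0.86 (adjusted p = 0.378) and -0.50 (adjusted p = 0.725). Leaving out WT MCD replicate 1 changed the count from 1 to 5 of 10, where 0.185% of all genes passed, and 0.112% passed with a lower value. The differences were -2.18 for Cyp2c29 (standard error 0.19, adjusted p = 0.00187), -1.68 for Cyp2c37 (standard error 0.24, adjusted p = 0.0276), -1.37 for Cyp2c50 (standard error 0.15, adjusted p = 0.00644), -1.19 for Cyp2c54 (standard error 0.19, adjusted p = 0.0446) and the value above for Cyp2c55. All 5 were lower in Pctp-/- than in WT mice, and the WT group then holds 2 mice. That liver was set apart for its low values of Cyp2c29, Cyp2c37, Cyp2c50 and Cyp2c54, so the larger differences and smaller standard errors of these genes without it follow in part from that choice and are no independent support.

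Set against WT livers on the same diet, the Pctp-/- livers on MCD had 3 of 10 members called, where 0.818% of all genes were, with 2 higher (0.297%) and 1 lower (0.521%). The split over all genes depended on the scaling, with 37 of 102 calls higher as deposited and 69 of 110 higher after quantile normalization, and the 3 members kept their direction under both. Cyp2c55 was lower by 1.51 on the log2 scale (log2 fold change -1.51, standard error 0.18, adjusted p = 0.0027), at 2.33 ± 1.00 FPKM against 8.28 ± 1.22 FPKM in WT (SD, n = 3 each). Cyp2c23 was higher, at 107 ± 8.77 against 78.1 ± 4.01 FPKM (SD, n = 3 each; log2 fold change 0.45, standard error 0.09, adjusted p = 0.0412). Cyp2c67 was higher as well, at 39.7 ± 3.29 against 26.2 ± 2.61 FPKM (SD, n = 3 each; log2 fold change 0.58, standard error 0.12, adjusted p = 0.0492). Both of those adjusted p values lie close to the threshold, and Cyp2c23 passed in 9 of 21 and Cyp2c67 in 6 of 21 other settings, with the same direction in each.

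Cyp2c70 was at 323 ± 50.6 FPKM in Pctp-/- and 155 ± 71.1 FPKM in WT livers on MCD (SD, n = 3 each), with no overlap between the groups and a log2 fold change of 1.14 (standard error 0.27, adjusted p = 0.0792). In all, 4 of 10 members had groups that did not overlap, Cyp2c23, Cyp2c67 and Cyp2c70 higher and Cyp2c55 lower, beside 26.6% of all genes. Of the 12466 genes tested, 686 were apart and higher and 2627 apart and lower. The median log2 fold change of the members was -0.15, and that of all genes -0.09. Cyp2c29 had a log2 fold change of -1.49 (standard error 0.41, adjusted p = 0.112), and its groups overlapped through WT replicate 1. With all libraries Cyp2c37 was at -0.58 (standard error 0.43, adjusted p = 0.539), Cyp2c50 at -0.72 (standard error 0.31, adjusted p = 0.278) and Cyp2c54 at -0.24 (standard error 0.42, adjusted p = 0.818), and over other settings Cyp2c54 ranged from -0.94 to 0.18.

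Without WT MCD replicate 1, 5 of 10 members passed, where 0.409% of all genes did, and all 5 were lower in Pctp-/- livers, where 0.249% of all genes were. The median log2 fold change of the members was then -0.50, and that of all genes -0.07. Cyp2c29 was 222 ± 31.8 FPKM in Pctp-/- livers (SD, n = 3) and a mean of 1006 FPKM in the remaining WT livers, with a log2 fold change of -2.18 (standard error 0.14, adjusted p = 4.29e-05). Cyp2c37 was 119.8 against 290.2 FPKM (log2 fold change -1.28, adjusted p = 0.00831), Cyp2c50 was 251 against 589 FPKM (-1.23, adjusted p = 5.05e-04) and Cyp2c54 was 48.7 against 94.3 FPKM (-0.94, adjusted p = 0.017). Low values of Cyp2c29, Cyp2c37, Cyp2c50 and Cyp2c54 were the reason to set that liver apart. The calls gained for these genes thus follow in part from that choice and are no independent support. Cyp2c55 remained lower (-1.62, adjusted p = 0.00509), while Cyp2c23 (0.43, adjusted p = 0.113) and Cyp2c67 (0.66, adjusted p = 0.0608) no longer passed. In WT mice the effect of MCD then passed for 7 of 10 members, where 50.8% of all genes passed, with Cyp2c50 added to the 6 above.

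**Figure D4:**
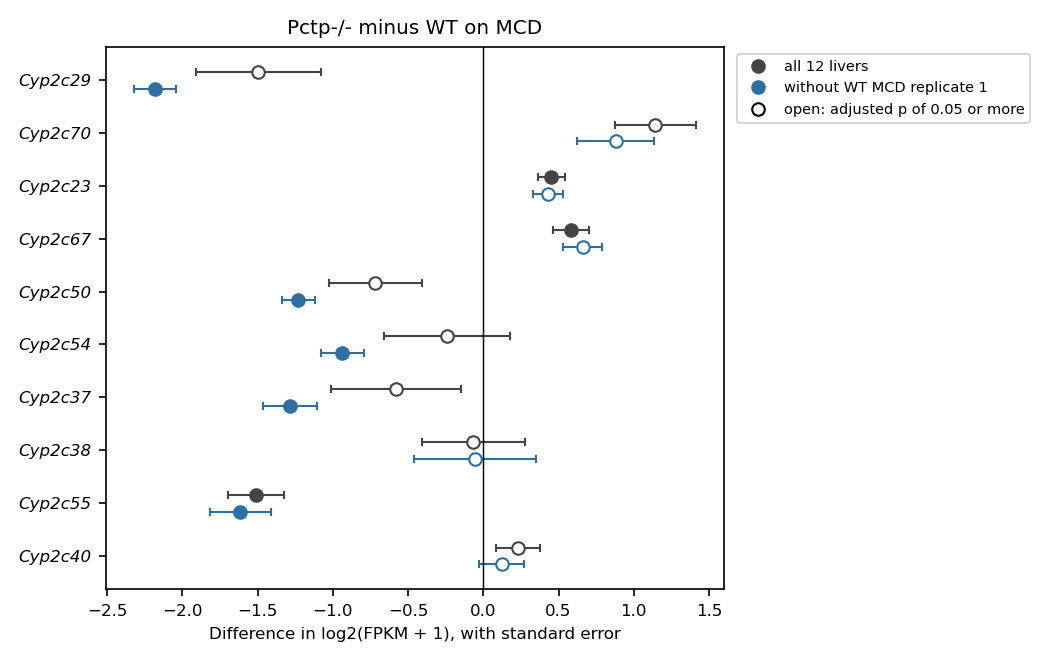
Difference between Pctp-/- and WT livers on MCD in log2(FPKM + 1), with its standard error from limma (horizontal axis), for each Cyp2c gene (vertical axis), with all 12 livers and without WT MCD replicate 1; filled points passed an adjusted p of 0.05. Leaving out that liver moved Cyp2c29 from -1.49 to -2.18 and Cyp2c50 from -0.72 to -1.23, and moved Cyp2c23 only from 0.45 to 0.43.

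Cyp2c29, Cyp2c37 and Cyp2c50 had their highest MCD levels in the same livers, WT replicates 2 and 3, and so had Cyp2c54, whereas Cyp2c67 was lowest in them. Those 6 MCD livers fall into separate sets by genotype and by WT replicate 1, so no correlation is given over them. Over all 12 livers the genes outside the family whose log2 level was most like that of a member were Afmid for Cyp2c23 (r = 0.996), Abcc6 for Cyp2c67 (r = 0.993), Galt for Cyp2c54 (r = 0.967), Sult2a7 for Cyp2c37 (r = 0.959), Gm6472 for Cyp2c55 (r = 0.949), Fndc5 for Cyp2c29 (r = 0.935), Ctsc for Cyp2c38 (r = 0.924), Fgf1 for Cyp2c70 (r = 0.918), BC025446 for Cyp2c40 (r = 0.915) and Eif3i for Cyp2c50 (r = 0.879). Each was picked as the highest of all tested genes, and the 4 groups and both diets are shared by every such pair.

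The promoters of 8 members were in the RefSeq table of GRCm38.p6, without Cyp2c23 and Cyp2c54. Windows from 250 bases before to 50 bases after the start were searched on both strands. A site of the liver factor HNF4, spelled CAAAGTNCA, was found in 5 of 8 (Cyp2c37, Cyp2c40, Cyp2c50, Cyp2c67 and Cyp2c70), where 1.41% of 32851 promoters of the same length hold it. The letters of a TATA box, TATAAA, were found in 6 of 8 against 13.6% of all, in each of them other than Cyp2c37 and Cyp2c50, and the match in Cyp2c40 lies after the start, 40 bases into the gene. TTGCNNAA, a site of C/EBP factors, was in 3 (10.8% of all), AGGTCA, a nuclear receptor half-site, in 2 (16.3%), TGTTTAC, a forkhead site, in 1 (3.65%), and TTCNNNGAA, a STAT5 site, in 0 (8.30%). The genes are related by shared descent, so their promoters are not separate samples. The windows of Cyp2c37 and Cyp2c50 are 88.0% identical and those of Cyp2c29 and Cyp2c38 75.3%.

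The 150 bases before the start are shown for Cyp2c37 and Cyp2c50, the closest pair, which were highest in the same 2 WT MCD livers, for Cyp2c29, which was high in those livers as well, and for Cyp2c55 and Cyp2c70, whose levels on MCD did not overlap between genotypes. Capitals mark matches to CAAAGTNCA or, shorter, to TATAAA on either strand. They lie at chr19:39992274-39992423 (plus strand), chr19:40089529-40089678 (plus), chr19:39286935-39287084 (plus), chr19:39006869-39007018 (plus) and chr19:40187287-40187436 (minus), in that order.
Cyp2c37: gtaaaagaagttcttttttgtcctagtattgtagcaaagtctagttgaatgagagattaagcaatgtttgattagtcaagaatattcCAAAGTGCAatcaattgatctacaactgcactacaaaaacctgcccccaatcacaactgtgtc
Cyp2c50: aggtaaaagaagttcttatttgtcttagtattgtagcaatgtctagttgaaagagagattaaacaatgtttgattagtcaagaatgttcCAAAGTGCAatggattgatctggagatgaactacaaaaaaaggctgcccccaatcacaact
Cyp2c29: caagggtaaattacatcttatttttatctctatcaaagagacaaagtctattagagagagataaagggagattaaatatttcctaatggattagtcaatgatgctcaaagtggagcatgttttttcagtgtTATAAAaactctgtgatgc
Cyp2c55: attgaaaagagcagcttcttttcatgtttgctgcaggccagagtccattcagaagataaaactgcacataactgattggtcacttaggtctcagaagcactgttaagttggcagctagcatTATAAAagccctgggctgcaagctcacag
Cyp2c70: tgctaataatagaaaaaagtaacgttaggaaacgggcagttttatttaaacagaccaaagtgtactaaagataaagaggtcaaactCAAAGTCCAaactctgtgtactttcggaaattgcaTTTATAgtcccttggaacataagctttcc

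Of the members with the HNF4 letters, Cyp2c37 rose and Cyp2c67 fell on MCD in both genotypes, and Cyp2c70 passed in WT mice alone, where it fell. Cyp2c40 and Cyp2c50 passed in neither genotype with all libraries. Hnf4a itself, chosen after its values were seen, changed by -1.10 on the log2 scale with MCD in WT (adjusted p = 2.78e-06) and by -0.87 in Pctp-/- mice (adjusted p = 2.22e-05), and differed between genotypes on MCD by -0.07 (adjusted p = 0.774). Nr1i3 and Nr1i2, which encode the drug-sensing receptors CAR and PXR and were named for the same reason, differed between genotypes on MCD by 0.37 (adjusted p = 0.394) and -0.18 (adjusted p = 0.672). The part of these factors in the Cyp2c changes was not tested.

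The other Cyp2c genes of the cluster moved in both directions too. Of 7 listed, 3 averaged 0.5 FPKM or more and were tested. All 3 passed with MCD in both genotypes (57.0% and 50.3% of all genes), 2 higher and 1 lower. The lower one, Cyp2c53-ps, reached that average only through the chow livers, so its call is no support for a fall. Among the genes not tested, Cyp2c65 averaged 0.013 FPKM on chow in both genotypes. On MCD it averaged 0.564 FPKM in WT and 0.319 FPKM in Pctp-/- livers. Cyp2c39 rose by 2.72 on the log2 scale in WT (standard error 0.34, adjusted p = 3.56e-05) and 2.80 in Pctp-/- mice (standard error 0.34, adjusted p = 3.80e-05), to 195 to 285 FPKM on MCD from 15.4 to 51.1 FPKM on chow. Cyp2c68 rose by 0.90 (adjusted p = 0.00217) and 1.37 (adjusted p = 1.46e-04). Cyp2c53-ps, the pseudogene that overlaps Cyp2c29, was 2.81 to 4.11 FPKM on chow and 0 to 0.146 FPKM on MCD, and it fell in the WT livers in which Cyp2c29 stayed at its chow level as well as in the rest. None of the 3 differed between genotypes on either diet (adjusted p of at least 0.774 on MCD).

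Partners of the family were followed in lists, each counted over its tested genes. With MCD 34.5% of all genes were called higher and 22.5% lower in WT, and 26.0% and 24.4% in Pctp-/- mice. A list count near these shares is no result about that list as such. Of 5 tested arachidonic acid epoxygenases outside the family and epoxide hydrolases, 4 fell with MCD in WT, and 4 fell and 1 rose in Pctp-/- mice. Ephx1, the microsomal epoxide hydrolase, changed by -0.80 on the log2 scale in WT (adjusted p = 5.40e-04) and by -1.77 in Pctp-/- mice (adjusted p = 1.86e-06). Ephx2, the soluble hydrolase that opens the epoxides of arachidonic acid, changed by -1.15 (adjusted p = 3.36e-06) and -1.23 (adjusted p = 2.80e-06). Cyp2j9 changed by -2.21 (adjusted p = 6.57e-06) and -1.65 (adjusted p = 7.63e-05), and Cyp2j5 by -1.11 (adjusted p = 3.21e-05) and -0.53 (adjusted p = 0.00657).

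Ephx1 was also the member of this list that differed between genotypes on MCD, at 245, 233 and 186 FPKM in WT and 108, 116 and 128 FPKM in Pctp-/- livers (log2 fold change -0.90, standard error 0.14, adjusted p = 0.0153). Its WT MCD replicate 1 was the highest of its group, unlike that of Cyp2c29.

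Haem and electron supply of the P450 enzymes was followed in 13 genes. Of these, 4 fell (22.5% of all genes) and 2 rose (34.5%) with MCD in WT. In Pctp-/- mice 8 fell (24.4%) and 2 rose (26.0%). The medians were -0.19 in WT and -0.45 in Pctp-/- mice. Alas1, the rate-limiting enzyme of haem synthesis, changed by -2.03 on the log2 scale (adjusted p = 0.00365) and -1.55 (adjusted p = 0.019), and Cyb5r3, a cytochrome b5 reductase, by -1.06 (adjusted p = 1.54e-05) and -0.99 (adjusted p = 3.22e-05). Ppox, a later step of haem synthesis, changed by -0.77 (adjusted p = 0.00428) and -0.78 (adjusted p = 0.00461). Hmox1, which breaks haem down, rose by 1.83 (adjusted p = 6.11e-05) and 1.15 (adjusted p = 0.00202).

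Of 16 receptors and liver transcription factors that act on P450 genes, 9 fell (22.5% of all genes) and 1 rose (34.5%) in WT. In Pctp-/- mice 7 fell (24.4%) and 2 rose (26.0%). Cebpb changed by -2.40 on the log2 scale (adjusted p = 1.30e-04) and -3.25 (adjusted p = 1.72e-05), Cebpa by -2.04 (adjusted p = 3.66e-06) and -1.48 (adjusted p = 5.54e-05) and Foxa1 by -1.96 (adjusted p = 3.81e-04) and -1.04 (adjusted p = 0.0215). Onecut1 changed by -2.78 in WT mice (adjusted p = 0.0041), and its value in Pctp-/- mice was -1.12 (adjusted p = 0.187). On either diet 0 of the 16 passed between genotypes, with 2 at an unadjusted p under 0.05 on each.

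Among 10 growth hormone and sex-biased expression genes, 4 fell (22.5% of all genes) and 2 rose (34.5%) with MCD in WT. In Pctp-/- mice 5 fell (24.4%) and 2 rose (26.0%). Bcl6, a repressor active in male liver, was 4.95, 3.15 and 5.54 FPKM in WT and 24.4, 13.7 and 20.0 FPKM in Pctp-/- livers on chow, and was the gene of the list that passed between genotypes there (log2 fold change 1.87, standard error 0.23, adjusted p = 0.00536). On MCD it was 3.06 to 5.90 FPKM over both genotypes, and the difference of the diet effects was -2.16 (standard error 0.33, adjusted p = 0.0399). Ghr, the growth hormone receptor, was higher in Pctp-/- livers on MCD (log2 fold change 0.42, standard error 0.08, adjusted p = 0.0334). Trim24 rose by 1.79 (adjusted p = 7.76e-06) and 2.52 (adjusted p = 7.55e-07) with MCD, in the same order of genotypes.

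Of 11 bile acid genes that work beside Cyp2c70, 6 fell (22.5% of all genes) and 4 rose (34.5%) with MCD in WT. In Pctp-/- mice 6 fell (24.4%) and 3 rose (26.0%). Between genotypes 0 passed on either diet, with 1 on MCD and 2 on chow at an unadjusted p under 0.05. Cyp7b1, of the alternative pathway, changed by -3.06 on the log2 scale (adjusted p = 1.77e-06) and -2.51 (adjusted p = 1.06e-05), and Slc27a5, which activates bile acids for conjugation, by -2.41 (adjusted p = 1.83e-07) and -1.83 (adjusted p = 1.84e-06). Cyp39a1, an oxysterol hydroxylase, rose by 3.35 (adjusted p = 1.06e-07) and 3.31 (adjusted p = 1.58e-07). Akr1d1, a reductase of the pathway, rose by 1.94 (adjusted p = 3.35e-07) and 1.69 (adjusted p = 1.09e-06), and Cyp27a1, which starts the alternative pathway, changed by -1.88 (adjusted p = 1.92e-06) and -1.87 (adjusted p = 2.63e-06).

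Genes of the zones of the lobule were counted in the same way. Of 11 pericentral genes, 5 rose and 4 fell with MCD in WT and 6 rose and 3 fell in Pctp-/- mice, and of 10 periportal genes 7 and 5 fell and 0 rose. Over all genes 34.5% rose and 22.5% fell in WT, and 26.0% rose and 24.4% fell in Pctp-/- mice. Glul, glutamine synthetase of the last hepatocytes before the central vein, rose by 1.00 on the log2 scale (adjusted p = 1.06e-04) and 1.33 (adjusted p = 1.59e-05), while Cyp1a2, a drug-metabolising P450, changed by -0.84 (adjusted p = 1.92e-04) and -1.09 (adjusted p = 3.86e-05). Ass1, a periportal urea cycle enzyme, changed by -1.12 (adjusted p = 2.25e-05) and -0.90 (adjusted p = 1.50e-04). In both zones 0 genes passed between genotypes on MCD, with 5 pericentral and 3 periportal genes at an unadjusted p under 0.05.

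Markers of other cell types moved with the diet beside these results. Among all genes tested, 34.5% rose and 22.5% fell in WT, and 26.0% rose and 24.4% fell in Pctp-/- mice. All 6 macrophage markers rose with MCD in WT and 3 of 6 in Pctp-/- mice, summing to 55.0 to 88.1 FPKM in WT and 47.7 to 128 FPKM in Pctp-/- livers on chow, and to 156 to 258 FPKM and 128 to 136 FPKM on MCD. Of 4 tested markers of other leukocytes 3 rose in each genotype, from sums of 0.942 to 5.07 FPKM over the chow livers to 13.2 to 20.2 FPKM in WT and 7.11 to 11.8 FPKM in Pctp-/- livers on MCD. Stellate cell markers rose in 3 of 6 and 2 of 6 cases, endothelial markers in 2 of 5 and 0 of 5, and of 4 cholangiocyte markers 1 rose in WT and 1 fell in Pctp-/- mice. Hepatocyte markers, of which 2 rose and 2 fell in each genotype, summed to 40786 to 45763 FPKM on chow and 53358 to 74737 FPKM on MCD. Between genotypes on MCD 0 markers of any list passed the test by limma, with 1 macrophage, 1 stellate cell, 1 endothelial, 2 other leukocyte and 2 hepatocyte markers at an unadjusted p under 0.05, and the part of cell make-up in the Cyp2c differences was not tested.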

How the data were processed

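The deposited expression table holds FPKM values, which are not counts, and a second deposited table holds counts of reads and percentages of mapping and quality, used here for depth and to compare the libraries. Reads of 150 bases were aligned to mm10 according to the submitters' processing notes, and the aligner, counting tool and annotation were not given in the sources used here. Groups and replicate numbers came from the labels. The 10 members, the lists and the tests were chosen with earlier results of these data known. Genes averaging 0.5 FPKM or more (12466 of 35275) were fitted with limma version 3.58.1 in R version 4.3.3 on log2(FPKM + 1), with 1 mean for each of the 4 groups, all 12 libraries sharing the spread, and a mean-variance trend, after a test on simulated data. The study itself named a Wald test, and limma was used here because the values are FPKM. A call needed an adjusted p under 0.05 (Benjamini-Hochberg, over all genes tested) and no minimum fold. Fold changes on this scale understate the change of genes at low FPKM, such as Cyp2c40 and Cyp2c55. The labels do not say that the mice were housed or sequenced in batches, although read error and mapping differed between the diets. No 2 libraries held identical values. Named genes were all 10 members, every other Cyp2c gene tested, Pctp, up to 4 called genes of each list with the largest change in each comparison, and the gene most like each member. One gene of a list that this rule names is not reported here. Positions, coding sequences and symbols came from GENCODE M21. Identity was the share of matched bases in a global alignment over the longer sequence. Tried besides were another pseudocount, other filters on low values, 2 other scalings, fits of 6 libraries, a replicate block, limma without its trend or with its robust option, a minimum fold and leaving out each library. Precision is limited by 3 mice per group.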

Additional observations from a re-analysis of the deposited data

Results flagged for a closer look

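Cyp2c55 was the member whose response to MCD differed between the genotypes in the test of the difference itself. It rose from 1.91 ± 0.280 to 8.28 ± 1.22 FPKM in WT mice and was 2.12 ± 0.308 and 2.33 ± 1.00 FPKM in Pctp-/- mice (SD, n = 3 each), and the difference of the diet effects was -1.61 on the log2 scale (limma, adjusted p = 0.0488). All 3 Pctp-/- livers on MCD were below all 3 WT livers on MCD. The adjusted p was 0.0164 to 0.172 over 19 other settings. Groups of 3 are too small for a test of single outlying samples, so WT MCD replicate 1 was set apart from its values alone.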

How the results depend on the processing

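The calls between diets held best across settings, but every setting kept the difference in sequencing between the diets. With MCD against chow, 6 of 10 members were called in WT and 5 in Pctp-/- mice, and other settings gave 5 to 7 and 5 to 6. On chow 0 members differed between genotypes under any setting. Between genotypes on MCD, the 3 calls became 1 with no filter on low values, 1 with no mean-variance trend, 1 with a minimum log2 fold change of 1 and 0 when only the 6 MCD libraries were fitted, and leaving out single libraries gave 1 to 5. The count was 5 without WT MCD replicate 1, and 1 without WT chow replicate 3, without Pctp-/- chow replicate 2 or 3, without WT MCD replicate 2, or without Pctp-/- MCD replicate 2 or 3. For the difference of the diet effects, the single call became 0 with a pseudocount of 0.1, a mean FPKM of at least 5, no filter, median-of-ratios scaling or no trend, and leaving out single libraries gave 0 to 5, with 2 without WT MCD replicate 3 (Cyp2c55 and Cyp2c70). Under quantile normalization the count was 1 as well, but the member was Cyp2c23 and not Cyp2c55. A mean FPKM of at least 5 removes Cyp2c40 and Cyp2c55 from the genes tested; the cause of the other changes was not tested. Over all genes, that difference passed for 6 with median-of-ratios scaling, 18 with quantile normalization and 59 with the replicate block, against 12. Of 1030 values of single members under other settings 946 kept their direction and side of the threshold, 41 lost the call, 17 gained it, 26 changed sign while not called, and 0 changed sign when called. Between diets in Pctp-/- mice, the log2 ratio of the summed level was -1.03, but -0.56 without Cyp2c29 and -1.28 without Cyp2c70.

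Replicate numbers are shared between groups but number different mice, and deviations of same-numbered libraries correlated at -0.10 to 0.20, so the numbers were not taken as pairs. With the replicate block, the members called were 0 and 2 between genotypes on chow and on MCD, 7 and 5 between diets in WT and Pctp-/- mice, and 1 for the difference.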
